A study of Mus musculus with 13 samples.

Results

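Paneth cells are the secretory cells at the base of the small intestinal crypt. They store antimicrobial proteins in large granules (alpha-defensins, lysozyme, angiogenin 4, intelectin) and release them into the crypt lumen, and they also supply signals such as Wnt3 to the Lgr5+ stem cells among which they lie. They arise from those stem cells through a secretory progenitor shared with goblet cells, which make mucus.

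Paneth cells were picked from 13 CEL-seq libraries of mouse small intestine by their transcripts. A cell was taken when 22 genes (all Defa symbols, AY761184, Gm14851, Gm15284, Ang4, Lyz1, Mmp7 and Itln1) made up at least 5% of its transcripts, counting only cells of 3000 or more transcripts once spike-in RNA was set aside. This gave 88 of 892 cells, or 9.87%. The mice were C57Bl6/J with an Lgr5-driven CreERT2 and a Rosa26 YFP reporter behind a loxP stop, so tamoxifen marks cells that express Lgr5 at that time, and their offspring, with YFP. Every group came from this cross and, per the design text, tamoxifen was given before the YFP+ sort. YFP+ cells were sorted 5 days after tamoxifen in 5 libraries. At 3 weeks, 1 library held YFP+ cells gated for CD24 and 1 was labelled as its non-traced CD24+ control. At 8 weeks, 3 libraries held traced cells gated for CD24, 1 held traced cells with no such gate, and 2 held CD24+ controls that were not traced. The protein CD24 lies on the surface of Paneth cells and other crypt cells. The labels do not give the age or sex of the mice, or say whether libraries of a group came from separate mice, so p-values measure the spread between libraries, which may be technical.

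The label was checked against 8 Paneth markers that are themselves among the 22 genes, so this describes the choice and tests nothing. In 66 of the 88 cells all 8 markers lay above the 95th percentile of the other cells, and the remaining 22 cells passed for 4 to 7 of them. The share of the 22 genes ran from 5.04% to 74.7% of a cell's transcripts, with a median of 45.9%, against a median of 0.332% and a maximum of 4.78% in the other 804 cells. Just inside the limit of 5% lay cells at 5.04%, 5.15%, 5.50% and 5.64%, and just outside it cells at 4.78%, 4.28% and 4.24%. Tuft markers were at 0 in 44 Paneth cells and reached at most 0.0332% of transcripts, enteroendocrine markers reached 0.159%, enterocyte markers 0.403%, leukocyte markers 0.008% and mesenchymal markers 0.007%. Goblet markers were present in every Paneth cell, from 0.389% to 14.04%.

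Each library held 421675 to 1385266 transcripts and 50 to 87 kept cells, and spike-in RNA made up 1.31% to 16.6% of a library. Paneth cells had a median of 17595 transcripts and 3346 genes, against 8203 transcripts and 3101 genes in the other cells. The same 96 cell barcodes were used in each of the 13 libraries, and no cell had identical counts in a pair of libraries. The deposited counts stop at a ceiling per gene and cell, set by the number of molecular barcodes. Of 145 values at that ceiling, 143 belonged to the 22 genes, in 48 of the 88 Paneth cells, so the largest shares above are underestimates.

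Alpha-defensin genes with a RefSeq promoter entry include Defa20, Defa21 and Defa22, whose levels differed widely between Paneth cells in the values below, and Defa23, shown for comparison (build GRCm38.p6, 250 bases before the transcript start and 50 after, plus strand). They are printed to show how alike these genes are where transcription starts. Capitals mark TATAAA and CTTTGA on either strand. CTTTGA, which reads TCAAAG on the opposite strand, is the core of the sequence bound by the TCF factors of the Wnt pathway. No match overlapped another. The intervals are chr8:21509008-21509307 for Defa20, chr8:21025295-21025594 for Defa21 and chr8:21054790-21055089 for Defa23. The Defa22 promoter (chr8:21162027-21162326) is identical to that of Defa21 over 300 bases.
Defa20: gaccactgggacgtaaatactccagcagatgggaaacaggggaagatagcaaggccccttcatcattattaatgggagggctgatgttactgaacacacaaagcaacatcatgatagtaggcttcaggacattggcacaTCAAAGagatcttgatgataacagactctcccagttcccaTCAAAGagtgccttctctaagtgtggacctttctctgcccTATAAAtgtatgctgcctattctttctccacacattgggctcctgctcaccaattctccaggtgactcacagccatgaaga
Defa21: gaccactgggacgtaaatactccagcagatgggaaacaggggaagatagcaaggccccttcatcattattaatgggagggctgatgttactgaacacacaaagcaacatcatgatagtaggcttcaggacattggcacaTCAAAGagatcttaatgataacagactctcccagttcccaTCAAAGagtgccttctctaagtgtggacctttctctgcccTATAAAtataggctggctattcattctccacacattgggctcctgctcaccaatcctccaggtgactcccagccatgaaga
Defa23: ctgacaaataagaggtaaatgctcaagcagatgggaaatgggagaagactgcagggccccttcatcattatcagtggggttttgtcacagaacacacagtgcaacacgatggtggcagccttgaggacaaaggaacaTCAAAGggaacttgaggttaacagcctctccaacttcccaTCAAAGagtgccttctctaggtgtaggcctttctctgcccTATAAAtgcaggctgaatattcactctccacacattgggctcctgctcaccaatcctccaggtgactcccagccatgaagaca
Each held 1 TATAAA and 2 CTTTGA. In Defa20, Defa21 and Defa22 they began at -31, -71 and -111 from the start, and in Defa23 at -33, -73 and -113. Among 32851 RefSeq promoters of the same length 13.6% held TATAAA, 16% held CTTTGA, 1.73% held at least 2 CTTTGA and 0.323% held TATAAA with at least 2 CTTTGA. The Defa20 and Defa21 promoters were identical at 293 of 300 bases (97.67%), while Defa23 matched Defa20 at 80.92% and Defa21 at 81.58% of aligned positions. These matches describe sequence only. Entries were found for 8 of the 22 genes.

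The 22 genes were not used evenly. CEL-seq counts 1 end per transcript, so levels of different genes can be set side by side without a correction for length. As a median over Paneth cells, Defa24 made up 16.8% of the 22-gene total, AY761184 (a defensin-like gene) 14.8%, lysozyme Lyz1 13.3%, Gm15284 11.1%, Gm14851 10.7% and the lectin Itln1 10.6%. Defa17 followed at 4.89%, the ribonuclease Ang4 at 2.36%, Defa5 at 2.29% and Mmp7, the protease that activates mouse alpha-defensins, at 0.663%. At the low end, Defa4 was detected in 20 and Defa25 in 7 Paneth cells. The count ceiling was reached by AY761184 in 40 cells, Defa24 in 33, Lyz1 in 23, Gm14851 in 17, Itln1 in 16, Gm15284 in 13 and Defa20 in 1, so the order of the first 6 is uncertain. Near-identical copies also limit single values. Over the last 300 bases of their GENCODE transcripts, 299 bases were identical between Defa17 and Defa3, 297 between Defa21 and Defa22, 291 between Defa17 and Defa23 and 286 between Lyz1 and Lyz2. Reads of such copies cannot be assigned with certainty.

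Paneth cells made up 1.35%, 11.9%, 14.3%, 2.94% and 5.0% of kept cells in the 5-day libraries, in replicate order. The 8-week traced CD24+ libraries had 16.1%, 9.23% and 20.3%. Their non-traced counterparts had 20.2% and 17.5%. The 8-week traced library without a CD24 gate had 3 of 80 (3.75%, exact 95% binomial interval 0.78% to 10.57%). Neither 3-week library held a Paneth cell. That allows up to 4.84% of the 62 traced CD24+ cells and up to 6.0% of the 50 cells labelled non-traced (3 cells of the total). These limits cover counting error only. The library labelled 3-week non-traced carries, in the combined table, a name with YFP and no CD24, so its label is in doubt. The mean share was 15.2% ± 5.58 (SD, n = 3) in the 8-week traced CD24+ libraries, 18.8% ± 1.96 (n = 2) in the non-traced ones and 7.10% ± 5.70 (n = 5) at 5 days. Traced and non-traced libraries overlapped (difference -3.65 points, exact two-sided permutation p = 0.6, adjusted over both comparisons 0.6). The smallest p that 3 against 2 libraries allow is 0.2. Traced CD24+ and 5-day libraries overlapped too (difference 8.1 points, exact two-sided permutation p = 0.143, adjusted 0.286, smallest possible 0.0357). Without Paneth cells that held 2% or more of another list's markers the sign of both differences turned, to 1.44 and -1.73 points.

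**Figure D1:**
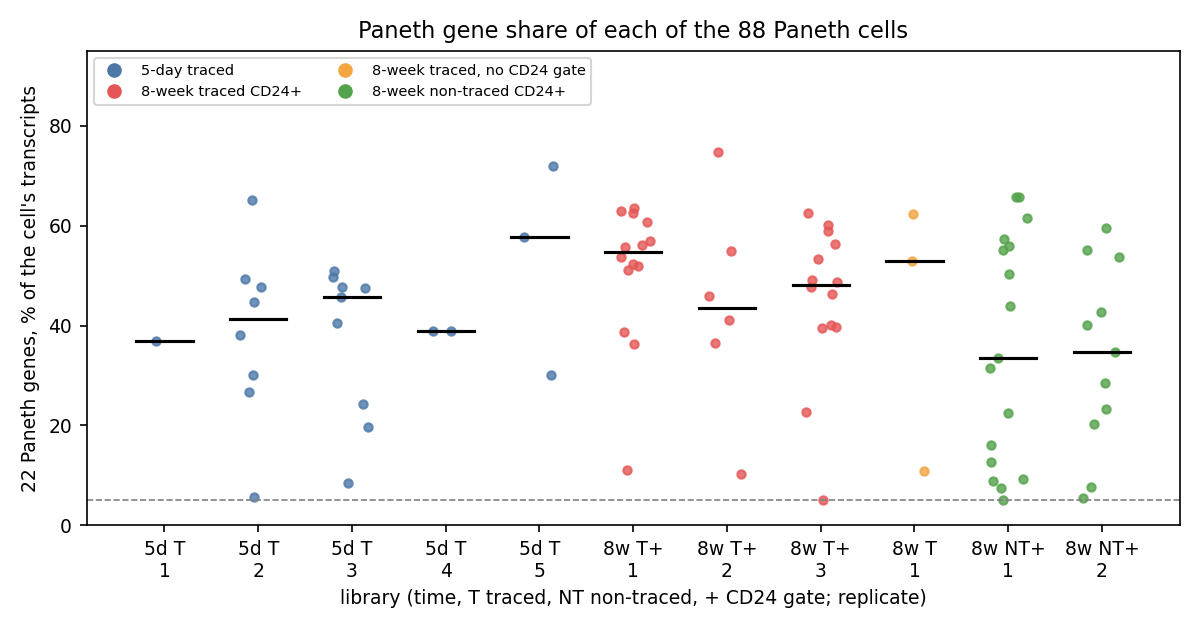
Share of the 22 genes in each of the 88 Paneth cells (vertical axis, % of the cell's transcripts) by library (horizontal axis). Points are cells, bars are library medians and the dashed line is the limit of 5%. Most libraries have a main body of cells above 20%, and the non-traced libraries hold 8 of the 15 cells below it.

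Within the Paneth cells there was a tail with few granule transcripts and many goblet transcripts. In 15 cells the 22 genes made up under 20%, and 14 of these 15 had at least 2% goblet markers, with a median of 8.09%. In 7 Paneth cells goblet markers exceeded the 22 genes. Tff3, a trefoil peptide of goblet mucus, had a median of 1.87% of transcripts in the 15 cells, 0.214% in the 21 cells at 20% to 40% and 0.210% in the 52 cells above 40%, against 2.85% in 62 other cells with at least 5% goblet markers. Fcgbp, a mucus protein, had medians of 0.432%, 0.008% and 0% over the same ranges and 1.55% in the goblet-marker cells. Agr2, which folds mucins, stood at 0.540%, 0.051% and 0.038%, and the mucin Muc2 at 0.420%, 0.120% and 0.145%. These 4 genes were highest in the lowest range. Of the other goblet markers, Spink4 had 3.40%, 0.946% and 1.22%, the largest median of the 13 in each range, and 2.24% in the goblet-marker cells. Zg16, Clca3 and Retnlb had a median of 0% in every range, and Guca2a had 0.397%, 0.025% and 0.051%. Granule genes did not differ by 1 common proportion. Lyz1 had medians of 1.47%, 4.29% and 7.13% in the rising ranges and Defa24 3.41%, 6.16% and 8.15%, while Ang4 had 0.025%, 0.732% and 1.56% and Defa5 0.012%, 0.738% and 1.79%. Mptx2, a mucosal pentraxin outside the 22 genes, had 0.012%, 0.069% and 0.984%. Mmp7 did not follow that order, with 0.407%, 0.259% and 0.314%. These cells were grouped by the same 22 genes, so the order of Lyz1, Defa24, Ang4, Defa5 and Mmp7 is a description. No doublet detection was run, and whether a library's barcodes held more than 1 cell was not tested.

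Goblet transcripts were spread unequally over the groups. At 5 days 3 of 23 Paneth cells had at least 2% goblet markers (median 1.10%). In the 8-week traced CD24+ libraries it was 24 of 34 (median 2.63%), in the non-traced ones 24 of 28 (median 5.30%) and in the library without the gate 3 of 3 (median 2.38%). These counts rest in large part on Spink4, which is also in the granule and defence list, and how many cells pass 2% without it was not counted. The same holds for settings that leave out cells with 2% or more of another list's markers. The tail below 20% held 3 of 23, 3 of 34, 8 of 28 and 1 of 3 cells of these groups. The largest Paneth cell, in non-traced replicate 1, had 145041 transcripts, 9756 genes and a share of the 22 genes of 8.85%. It supplied 31.3% of the Paneth transcripts of that library, and the next largest cell had 37064.

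**Figure D2:**
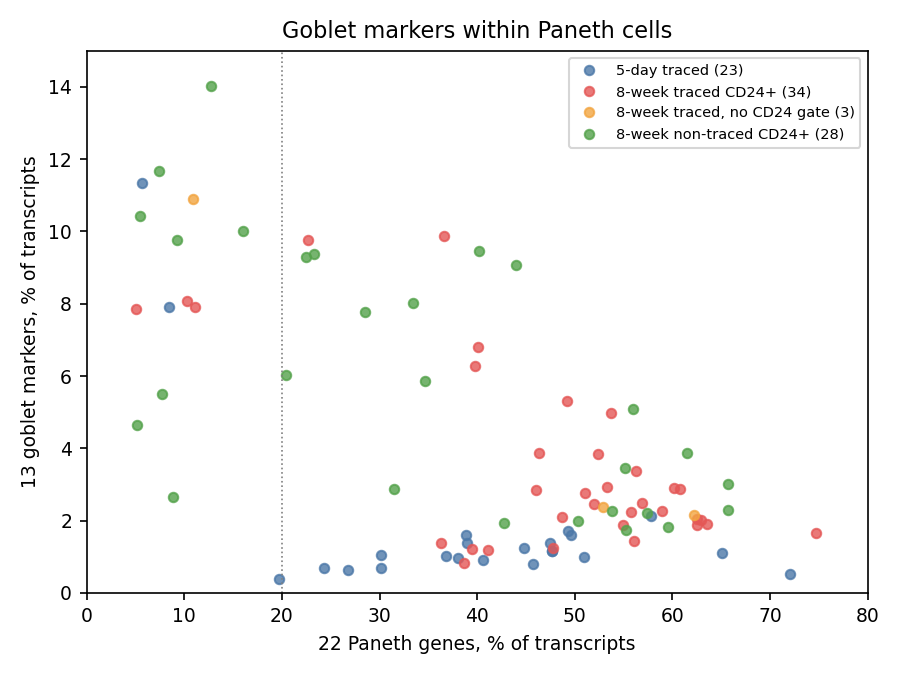
Summed share of 13 goblet markers (vertical axis, % of transcripts) against the share of the 22 Paneth genes (horizontal axis, % of transcripts) in each of the 88 Paneth cells, coloured by group. Of the 15 cells left of the dotted line at 20%, 14 lie at 2% goblet markers or more, and 20 of the 23 5-day cells lie below 2%.

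Defa20 was abundant in some Paneth cells and near 0 in most others. With a limit of 1% of transcripts, set after the values were seen, 22 of 88 cells were high for Defa20. These were 1 of 23 at 5 days (in replicate 2), 9 of 34 in the 8-week traced CD24+ libraries (2 of 14, 3 of 6 and 4 of 14), 11 of 28 in the non-traced libraries (6 of 17 and 5 of 11) and 1 of 3 without the gate. Defa21 passed 1% in 11 cells and Defa22 in 9, and 7 cells passed for all 3 genes. In the 22 cells Defa20 had a median of 3.02% (1.09% to 6.11%), against 0.023% (0% to 0.78%) in the remaining 51 cells whose 22-gene share was at least 20%. Those 22 cells were chosen by Defa20, so the gap is a description. Only 1 of the 22 cells came from 5 days, while most 5-day Paneth cells were among the 51, so the sets also differ in group. The part of the group in the medians below was not tested. Among other granule genes, Defa24 had medians of 8.07% and 7.32%, Lyz1 6.37% and 6.72%, and Defa17 1.84% and 2.31%. Defa5 had 2.02% and 1.07%, Ang4 1.71% and 1.06%, Defa21 0.402% and 0.083%, and Defa22 0.677% and 0.061%. The first 3 of these thus lay close together and the last 4 were higher in the cells high for Defa20. Defa24 and Lyz1 reached the count ceiling in 33 and 23 Paneth cells, which limits how far their medians can differ. Gm21002, a predicted gene known only by its gene-model number and held in the list of granule and defence genes, differed by more than the 7 genes above, with medians of 1.55% and 0.021%.

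Across the 73 Paneth cells with a 22-gene share of at least 20%, Spearman's rho with Defa20 was 0.923 for Gm21002, 0.854 for Gm15308, 0.397 for Defa22 and 0.192 for Defa21, while Defa21 and Defa22 had a rho of 0.751. The rho of Defa20 with Defa17 was -0.236. The cells share libraries and depth, so these values describe likeness only and no p is given. Sequence likeness of Gm21002 and Gm15308 to Defa20 was not established, as 26 of 39 genes looked up had a GENCODE transcript. Whether reads are divided between Defa20 and these genes was not tested. Defa20 and Defa22 share 270 of the last 300 transcript bases, fewer than Defa21 and Defa22, and the promoter of Defa20 printed above is identical to theirs at 293 of 300 bases.

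**Figure D3:**
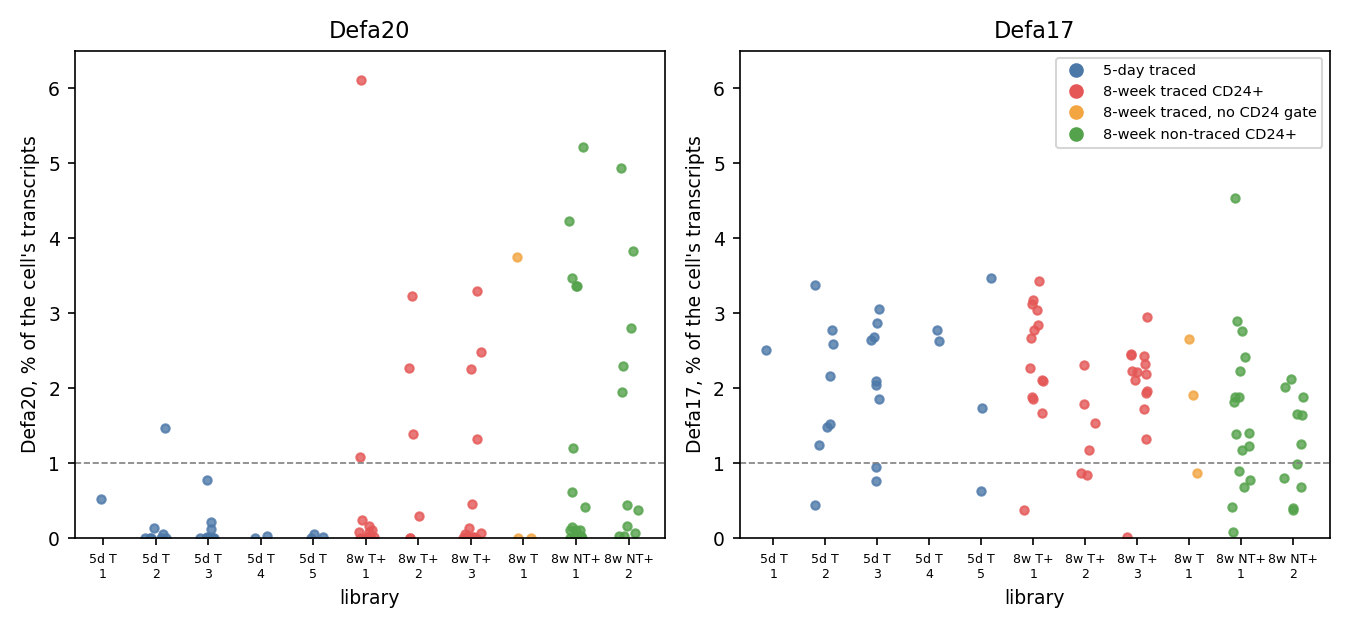
Defa20 (left) and Defa17 (right) in each Paneth cell, as % of the cell's transcripts (vertical axes), by library (horizontal axes). Points are cells and the dashed line is 1%. Defa20 passes 1% in 22 cells and lies near 0 in most others, while Defa17 has a median of 1.84% in those 22 cells and 2.31% in the 51 others with a 22-gene share of at least 20%.

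Set beside the other kept cells of the same library, Paneth cells carried a wider secretory profile than the 22 genes. The 9 libraries with at least 3 Paneth cells were used, and values are medians over libraries of the log2 ratio of CPM + 5 (CPM, the summed cells' transcripts of a gene scaled to a common total of 1e+06). Because the cells were chosen by transcripts, this is a description with no test. Among 859 genes at 200 CPM or more, 64 (7.45%) were higher in Paneth cells in all 9 libraries, 44 of them outside the 22 genes, and 570 (66.4%) were lower in all 9. The median ratio of the 859 genes was -1.02, and -0.30 when library sizes left out the 22 genes, since those take up much of a Paneth cell's transcripts. Ratios below are to be read against that shift.

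Genes of secreted proteins were among those with the highest ratios. Colipase (Clps), the cofactor of pancreatic lipase, stood at 2202 to 6230 CPM (median 4504) in Paneth cells and at 5.71 to 42.9 CPM in the other cells, a median log2 ratio of 7.22. The lipase Pnliprp2 had a ratio of 6.42 (median 1420 against 10.7 CPM), the pentraxins Mptx1 6.16 and Mptx2 5.97, and the ribonuclease Rnase1 5.16. Pla2g2a, a secreted phospholipase gene that GENCODE annotates as a polymorphic pseudogene, had 5.62, and its transcripts do not show that a working enzyme is made. Each of these 6 genes was higher in all 9 libraries. Habp2, a serine protease that binds hyaluronan, had 5.07 and was detected in 93.2% of Paneth cells against 4.48% of the other cells. Nupr1, a small stress-responsive nuclear protein, had 5.39 (729 against 9.19 CPM). Ratios of 4.27 to 4.87 were found for Guca2b (uroguanylin), Reg4 and the chemokine Ccl6. Several predicted genes known only by a gene-model number had the largest ratios, among them Gm15292 (7.92), Gm21002 (7.70), Gm15315 (7.38) and Gm14850 (6.99). Of these, Gm15292 shares 290 of its last 300 bases with Defa26. Lowest were Chga (-4.60), Chgb (-4.47) and Tac1 (-4.34), products of enteroendocrine cells, and Alox5ap (-3.45), a leukotriene enzyme cofactor of tuft cells. Of the granule and defence list outside the 22 genes, 16 of 26 members at 20 CPM or more were higher in every library and 1 was lower. Over all 7203 genes at that level 1.74% were higher and 39.5% lower in every library.

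Transcription factors and niche signals differed gene by gene. Bhlha15 (Mist1), a factor of mature secretory cells, had a ratio of 3.55 with 192 against 8.96 CPM, higher in 9 of 9 libraries. Wnt3 had 3.16 with 123 against 13.6 CPM, also in 9 of 9. The zinc transporter Slc30a2 (2.84), the receptor-like Fgfrl1 (2.63), Gfi1 (1.84), Atoh1 (1.57) and Ephb3 (1.24), a receptor that positions Paneth cells at the crypt base, were likewise higher in all 9. Ern2, the endoplasmic reticulum stress sensor of mucus cells, had 1.58. In the goblet-marker cells Atoh1 reached a median of 357 CPM and Ern2 620, above the Paneth medians of 110 and 177. Sox9, a factor required for Paneth cells, had -0.29, higher in 4 and lower in 5 libraries, and 0.68 when library sizes left out the 22 genes. Cd24a, which encodes the sorted surface protein, had 0.38, higher in 5 and lower in 4, and -0.26 with cells thinned to 3000 transcripts. Fzd5 (-1.86), Ephb2 (-0.999) and Notch1 (-1.58) were lower in all 9 libraries, and with library sizes without the 22 genes they had -1.30, -0.56 and -1.26, against the median of -0.30 there. Of 12 niche genes at 20 CPM or more, 3 were higher and 4 lower in every library. Of 65 endoplasmic reticulum genes 11 were higher and 3 lower, and no ribosomal gene of 86 was higher while 75 were lower.

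Paneth cells traced from Lgr5+ cells for 8 weeks were compared with non-traced Paneth cells of the same time label (8 weeks) and CD24 gate, over 3 and 2 libraries. Levels here are normalised CPM of the summed Paneth cells of a library. Few genes separated them. Of 3098 genes tested by edgeR's quasi-likelihood test, 33 (1.07%) passed an adjusted p of 0.05, 13 higher (0.42%) and 20 lower (0.646%) in traced cells, and 303 had an unadjusted p under 0.05. In 24.2% of all genes tested, the traced libraries lay wholly above or below the non-traced ones. The count rested on single libraries: it was 0 without traced replicate 3, 4 without traced replicate 2, 16 without traced replicate 1, and 92 once non-traced replicate 2 was left out. Cell names in the combined table mark all of these libraries but replicate 1 of each group with II, and with that mark as a block 46 genes passed, 31 of the 33 among them.

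Genes that were lower in traced Paneth cells included Guca2a, 2 cholesterol enzymes and 4 antigen presentation genes. Guca2a is also 1 of the 13 goblet markers, of which 10 were tested, 1 was called lower and 8 lay below 0 (median log2 change -0.64). Guca2a, which encodes guanylin, a peptide that stimulates intestinal fluid secretion (chr4:119637704-119639471 in GRCm38), stood at 637, 1577 and 626 CPM in the traced libraries and at 2234 and 3080 CPM in the non-traced ones. The groups did not overlap, and traced cells were lower by a log2 change of -1.53 (SE 0.31, adjusted p = 0.00812). Hmgcs1, the cytosolic synthase at the head of cholesterol synthesis (chr13:119690379-119708260), stood at 46.7, 56.3 and 50.2 against 206 and 140 CPM (-1.82, SE 0.34, adjusted p = 0.00505). Fdps, a later enzyme of that pathway, stood at 21.2, 22.5 and 36.5 against 120 and 74.3 CPM (-1.86, adjusted p = 0.0165). All 3 genes were lower in each traced library than in each non-traced one. Gm21002 had 3493, 3831 and 2242 against 6147 and 11507 CPM (-1.47, adjusted p = 0.0109). Defa20, which varied with Gm21002 between cells, had 5777, 9679 and 6850 against 8871 and 17664 CPM, an overlap, and did not pass (-0.84, adjusted p = 0.333), nor did Defa21 (-1.10) or Defa22 (-1.13).

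Of 5 MHC class II genes tested, 4 were lower in traced Paneth cells and none higher (median log2 change -1.47, against 0.01 over all genes). H2-Aa, a chain of the MHC class II molecule, stood at 106, 169 and 54.8 against 175 and 446 CPM (-1.58, adjusted p = 0.0207), so the groups were separated by a small gap. Cd74, the invariant chain, had -1.47, H2-Eb1 -1.53 and H2-Ab1 -1.45. Summed, the list made up 0.0352%, 0.0541% and 0.0299% of Paneth transcripts in traced libraries and 0.0899% and 0.183% in non-traced ones. In the other cells of the same libraries 5 of 7 members were higher in the traced group (median 1.05), where 4.04% of all genes were higher, 5.08% lower and 9.12% changed in either direction. Leukocyte markers were at most 0.008% of any Paneth cell's transcripts. With Paneth cells of at least 20% share 4 members were tested, none passed and the median was -1.31. Of 5 cholesterol synthesis genes tested, 2 were lower (Hmgcs1 and Fdps) and 5 of 5 lay below 0. In the other cells 0 of 24 passed.

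Other genes lower in traced cells by the largest folds were Cd177, a surface protein best known from neutrophils (-4.99), Ms4a8a (-4.02), the membrane-binding annexin Anxa2 (-2.84), AW112010 (-2.58), Gm10548 (-2.24), the serine protease Prss32 (-1.94) and Rpl34-ps1 (-1.65). Cd177 stood at 0, 11.3 and 4.6 against 51.1 and 244 CPM and rested on few transcripts. Lgals2 (-1.37) and Tmsb10 (-1.08) also passed; these 2 were named after their values were seen. Of 25 granule and defence genes outside the 22, 4 were called higher in traced cells (Mptx2, Clps, Pnliprp2 and Mptx1) and 2 lower (Cd177 and Gm21002), with a median of 0.12. Mptx2 (chr1:173274382-173277777) stood at 19635, 15008 and 10731 against 4784 and 5727 CPM (1.53, SE 0.34, adjusted p = 0.0144), and Clps at 6804, 4755 and 4881 against 2634 and 2044 CPM (1.23, adjusted p = 0.0274). Neither overlapped. Pnliprp2 had 1.40, Mptx1 1.37, Scgb2b19 1.44, Defa23 1.35 and Defa3 1.18. Cdkn1a, the cell cycle inhibitor p21 (1.77), Bambi, a decoy receptor of the TGF-beta family (1.67), Chgb (1.53) and the lysosomal protease Lgmn (1.34) were higher too. Of the 22 genes, 20 were tested, 2 were called higher and 16 lay above 0 (median 0.97). These genes chose the cells in both groups, so their tests are a description.

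The goblet-rich tail moved with these results, since it held 8 of 28 non-traced and 3 of 34 traced Paneth cells. Limited to cells with a share of at least 20%, a setting chosen after the values were seen, 10 genes passed and 4 of the 33 were among them: Gm21002 (-2.27), Guca2a (-1.82), Hmgcs1 (-1.61) and Tmsb10 (-1.10). There Mptx2 had 0.62, Clps 0.32, Pnliprp2 0.62 and Defa3 0.31, none of which passed, and the median of the 22 genes was 0.18. Without the largest cell 35 genes passed, 21 of the 33 among them. Beyond its values given here, the part of the tail in the 33 genes was not tested.

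**Figure D4:**
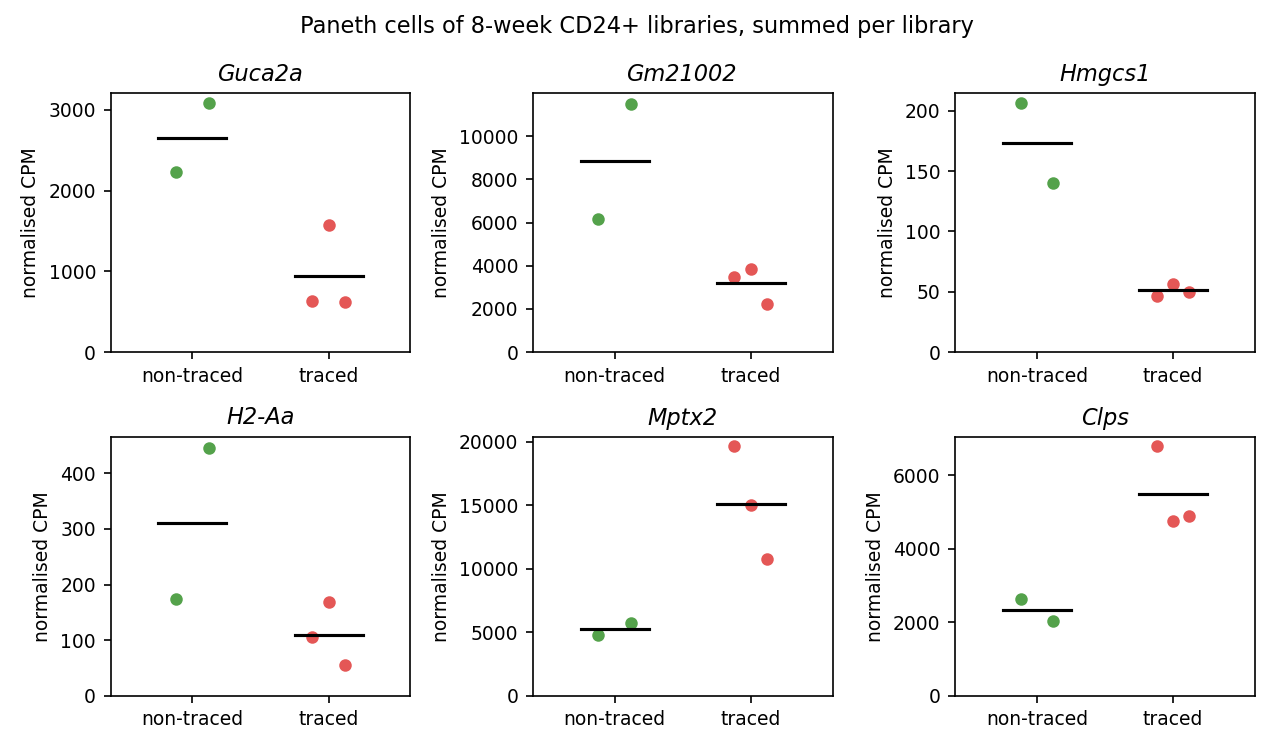
Normalised CPM (vertical axes, starting at 0) of 6 genes in the summed Paneth cells of each 8-week CD24+ library, non-traced (2 libraries) and traced (3). Points are libraries and bars are group means. Guca2a, Gm21002, Hmgcs1 and H2-Aa are lower and Mptx2 and Clps higher in every traced library than in every non-traced one.

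A fit with the other cells of the same libraries asked whether the traced to non-traced change differed between Paneth and other cells. Of 7992 genes 138 (1.73%) passed, 38 higher (0.475%) and 100 lower (1.25%) in Paneth cells relative to the others. Guca2a had a difference of -4.89 and H2-Aa of -2.88, and both were higher in the traced group in other cells (3.30 and 1.36). Hmgcs1 differed by -1.84 and was level there (0.05). The make-up of the other cells differed between the groups: goblet-marker cells numbered 5, 3 and 4 in the traced libraries and 0 in both non-traced ones, and 11 of 11 goblet genes tested were higher in the traced other cells (median 3.74). Goblet-marker cells were counted outside the Paneth cells only. Within the Paneth cells, goblet markers had a median of 5.30% in the non-traced and 2.63% in the traced libraries. Cells rich in goblet markers were thus present in the non-traced libraries, on the Paneth side of the limit. The part of this make-up, and of where the limit placed such cells, in the 138 genes was not tested.

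Paneth cells of the 8-week traced CD24+ libraries were then compared with those of 5-day traced libraries (replicates 2, 3 and 5; replicates 1 and 4 had under 3 Paneth cells). Of 1359 genes tested by the same edgeR test, 558 (41.1%) passed, 303 higher (22.3%) and 255 lower (18.8%) at 8 weeks, and 657 had an unadjusted p under 0.05. The groups did not overlap in 49.4% of genes. Time after tamoxifen, the CD24 gate and sex cannot be told apart here. The 5-day libraries held the Y-linked transcript Ddx3y at 19.7 to 42.4 CPM and Xist, the RNA of the inactive X chromosome, at 0 to 1.34 CPM over all kept cells, whereas all later libraries held no Ddx3y and 81.3 to 174 CPM of Xist. For comparison, 2274 of 7727 genes (29.4%) passed in the other cells of the same libraries.

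Genes of protein folding and secretion in the endoplasmic reticulum were higher at 8 weeks in Paneth cells. Of 50 list members tested, 40 rose and none fell, where 22.3% of all genes rose and 18.8% fell. The median log2 change was 1.03 against 0.08 over all genes. Summed over the list, they made up 1.05%, 1.08% and 0.854% of Paneth transcripts at 5 days and 1.56%, 1.89% and 1.95% at 8 weeks, so the groups did not overlap. The non-traced libraries had 2.09% and 2.34% and the library without a gate 1.98%. Hspa5 (BiP), the main chaperone of this compartment, stood at 201, 216 and 260 CPM at 5 days and at 700, 1035 and 877 CPM at 8 weeks (log2 change 1.97, SE 0.25, adjusted p = 6.1e-05). Edem1, which sends misfolded proteins to degradation, rose by 1.87, Dnajc3 by 1.85, the disulfide isomerases Pdia6 by 1.34 and P4hb by 1.17, Calr by 1.23 and Xbp1, the transcription factor of the unfolded protein response, by 0.71.

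In the other cells of the same libraries 8 of 63 members of that list rose and 4 fell (median 0.04), shares near or below those of all genes there, of which 15% rose and 14.4% fell. Relative to those cells, 17 of 65 members rose more in Paneth cells and none less, where 75 of all 6895 genes (1.09%) rose more and 88 (1.28%) less. P4hb, at -0.84 in other cells, differed by 1.90, and Hspa5 by 1.14. With Paneth cells of at least 20% share 35 of 49 rose (median 1.08). Without those that held 2% or more goblet markers, which left out 24 of 34 traced and 3 of 23 5-day cells, 3 of 47 rose and the median was 0.39. Goblet genes moved with the list: 8 of 9 tested rose in Paneth cells, where 22.3% of all genes rose. Among them were Spink4 (5445, 8200 and 7118 against 18581, 25996 and 25594 CPM, log2 change 1.76), Muc2 (0.90), Tff3 (0.75) and Guca2a (1.07). Their part in the endoplasmic reticulum result was not tested.

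Ribosomal protein genes went the other way. Of 81 tested, 61 fell and none rose (median -0.85), where 18.8% of all genes fell and 22.3% rose. They made up 14.1%, 15.2% and 15.3% of Paneth transcripts at 5 days and 5.98%, 8.55% and 7.24% at 8 weeks. The non-traced libraries lay between these groups at 11.6% and 10.5%. In the other cells 54 of 86 fell as well, where 14.4% of all genes fell. Of 72 oxidative phosphorylation genes 26 fell and 1 rose in Paneth cells, and in the other cells 54 of 84 fell and 0 rose. Library sizes without the 22 genes left the ribosomal median at -0.94. Values per cell type are shares of transcripts, so fewer ribosomal protein transcripts per cell and more of other transcripts cannot be told apart.

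**Figure D5:**
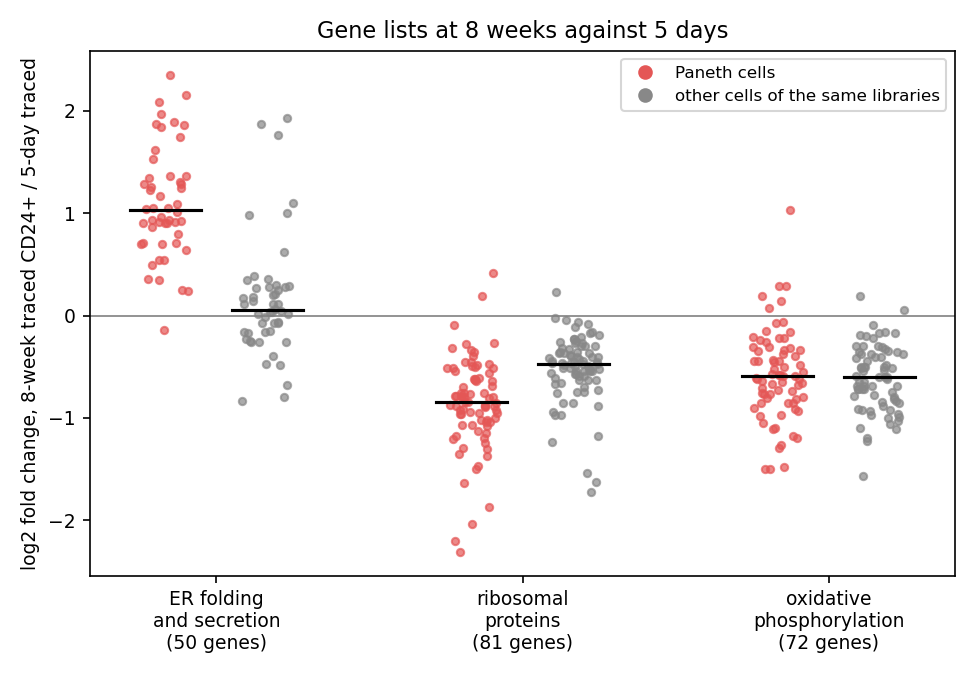
Log2 change from 5-day traced to 8-week traced CD24+ libraries (vertical axis) of single genes in 3 lists (horizontal axis), in Paneth cells (red) and in the other cells of the same libraries (grey). Points are genes and bars are medians. The endoplasmic reticulum list has medians of 1.03 and 0.05 over the same 50 genes, while ribosomal (-0.85 and -0.47) and oxidative phosphorylation genes (-0.59 and -0.60) lie below 0 in both.

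Granule genes were mostly higher at 8 weeks. All 20 tested of the 22 genes lay above 0 (median 0.75) and 9 passed, among them Defa20 (3.00), Ang4 (1.27), Itln1 (1.23), Mmp7 (1.15), Defa3 (1.13), Defa23 (1.05), Lyz1 (0.76) and Defa-rs7 (0.74). These genes chose the cells in both groups, so their tests here and against the other cells are a description. The other cells are held under 5% by the same genes. Values at the count ceiling are underestimates. In the other cells of the same libraries 8 of 12 tested of the 22 genes rose (median 1.32), where 15% of all genes rose. Relative to those cells, 0 of 20 rose more in Paneth cells and 2 less (Lyz1 and Mmp7), where 1.09% of all genes rose more and 1.28% less. Defa20 had 2.26 in the other cells, and its difference of 0.58 did not pass. Defa20 (chr8:21509258-21510237) had 1654, 886 and 130 CPM at 5 days and 5806, 9663 and 6921 CPM at 8 weeks, with no overlap (SE 0.49, adjusted p = 0.000364). It passed in 19 of 19 alternative settings, which draw on the same libraries and on cells chosen with this gene. The highest 5-day cells were 1 of replicate 2 at 1.47% and 1 of replicate 3 at 0.780% of transcripts. Outside the 22 genes, 15 of 23 members of the granule and defence list rose and 2 fell, where 22.3% of all genes rose and 18.8% fell. In the other cells 8 of 20 members rose and 4 fell. The list shares Agr2, Ccl6, Ccl9, Spink4 and Tff3 with the goblet markers. Without Paneth cells that held 2% or more of another list's markers, 9 of 22 rose and 2 fell in Paneth cells. Pla2g2a stood at 563, 568 and 519 against 2760, 2846 and 3567 CPM (2.47, SE 0.23, adjusted p = 3.2e-06), and Mptx2 at 3054, 4306 and 6024 against 19733, 14983 and 10843 CPM (1.77). Its neighbour in the pentraxin family did the opposite. Mptx1 stood at 1152, 1832 and 1520 CPM at 5 days and at 486, 360 and 175 CPM at 8 weeks (-2.14, adjusted p = 0.00018). Mptx1 and Mptx2 share 263 of their last 300 transcript bases, so reads may be divided between them.

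Of 9 lineage transcription factors tested 7 rose (Bhlha15, Cdx1, Creb3l4, Foxa3, Klf4, Sox9 and Spdef) and Hnf4a fell. Over all genes tested 22.3% rose and 18.8% fell. In the other cells of the same libraries 12 of 27 factors rose and 5 fell (median 0.59), where 15% and 14.4% of all genes did. Relative to those cells, the change of 0 of 28 factors was higher in Paneth cells and that of 1 (Ascl2) was lower. Spdef, which drives maturation of goblet and Paneth cells, stood at 20.1, 67.6 and 18.5 against 188, 158 and 240 CPM (2.32, adjusted p = 0.000531), and Bhlha15 at 67, 74.4 and 37.1 against 230, 203 and 226 CPM (1.76). Each pair of groups was separate. Without Paneth cells that held 2% or more of another list's markers, none of 9 factors tested passed (median 0.64). All 4 niche genes tested rose: Kit (2.03), a receptor tyrosine kinase, Fgfrl1 (1.63), Cd24a (1.19) and Wnt3 (0.93). Without those cells 2 of the 4 passed, Fgfrl1 had 1.01 (adjusted p = 0.278) and Wnt3 0.36 (adjusted p = 0.72), and Wnt3 passed in 5 of 18 alternatives. Cd24a rose more in the other cells (2.11), where the gate for its protein also applied. There 3 of 11 niche genes tested rose and 3 fell. Relative to those cells, 0 of 13 rose more in Paneth cells and 1 less (Cd24a). Of 8 immediate early genes 6 fell (Atf3, Egr1, Fos, Fosb, Ier2 and Jund). In the other cells 6 of 11 fell and 1 rose (median -0.61). Relative to those cells, 2 of 11 (Dusp1 and Jun) were lower in Paneth cells and none was higher. Atf3, a transcription factor of acute stress, had 288, 210 and 630 CPM at 5 days and no transcript in the 8-week Paneth cells, at least 55.4-fold lower with 3 counts over the group as the floor, and Gm6607 was at least 18.5-fold lower. In the other cells Atf3 and Gm6607 also fell (log2 changes of -5.85 and -6.25), and their differences between the cell classes did not pass. Egr1 fell by 1.75 in Paneth cells. Of 4 enterocyte genes 3 fell, Apoa1 and Fabp2 among them, and 13 of 14 fell in the other cells.

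The remaining genes named by rule fell by 2.43 to 5.44 or rose by 2.52 to 4.92. The falls included Apoa1 (-5.44), the esterase Ces2e (-5.13), Gm11517 (-5.10), BC064078, Gm4832, Slx1b, Thbs1 (-2.90), Prap1, Gm6548, Snhg1, Mir682 and AI747448 (-2.43). The rises were Gm7849 (4.92), Gm15308 (4.5), the nuclear RNA Malat1 (3.68), Chgb (3.37), Scgb2b19, Gm10104, the calcium pump Atp2a3 (2.92), Yipf5 (2.81), Clcn4-2, Stat3 (2.77), Nucb2, A630089N07Rik and Ccl9 (2.52). Gm7849 shares 282 of its last 300 transcript bases with Gm7861 and 269 with AY761184, so reads may be divided between them. Of the 30 genes named by rule, 24 passed in every alternative that gave a value. The change was shared with other cells for most of them: 14 of 15 falls, and 9 of the 10 rises with a value there, passed in the same direction in the other cells. Malat1 stood at 127, 108 and 74.1 against 1224, 1541 and 1463 CPM in Paneth cells, a log2 change of 3.68 against 3.39 in other cells. Thbs1, a matrix glycoprotein, stood at 181, 87.9 and 185 against 21.3, 11.2 and 18.5 CPM in Paneth cells and had 0.65 in other cells (difference -3.87). Yipf5, a protein of the Golgi, had 0.51 there (difference 2.26).

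The 3 Paneth cells of the 8-week traced library without a CD24 gate are 1 library with no replicate. They held 642 Gm21002 transcripts, which is 11235 CPM (exact 95% Poisson interval 10383 to 12139, counting error only), and 680 Defa20 transcripts or 11900 CPM (11022 to 12829). Both came almost wholly from 1 cell, with 3.53% Gm21002 and 3.75% Defa20, while the other cells held 0.0086% and 0% Gm21002 and no Defa20. Mptx2 stood at 13633 CPM (12692 to 14625) and Guca2a at 3150 CPM (2707 to 3645). Atf3 had no transcript and Malat1 stood at 1470 CPM (1173 to 1820), both on the side of the gated 8-week libraries.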

How the data were processed

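Per the labels, single cells were measured by CEL-seq, which tags the 3′ end of each transcript. The authors deposited estimated counts of transcripts for each gene in each cell. Each value is the number of molecular barcodes corrected for collisions among 256, as read from the values; the per-library files, whose unit is entered as other, hold the same deposited values as the combined table, whose cell sets were tied to libraries by identical values and used only for the II mark. BWA 0.6.2-r126 and mm10 are named in the submitters' processing notes; gene models and read filters are not given in the sources used here. Of 1248 barcodes, 356 under 3000 transcripts were left out.

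Counts of the Paneth cells of a library were summed and rounded, and libraries with under 3 Paneth cells were left out of tests. The library was the replicate, with groups from the labels. Tests used edgeR 4.0.16 in R 4.3.3 (quasi-likelihood F test, TMM, filterByExpr, Benjamini-Hochberg, 0.05), tested on simulated data; DESeq2 1.42.0 was an alternative. An interaction fit with the other cells, the library as a block, was added after the data were seen, as were a share limit of 20%, leaving out the largest cell and leaving out cells with 0.1% or more tuft, enteroendocrine or enterocyte markers. Shares of cells were compared with exact permutation tests (Python 3.11.15, numpy 2.4.6). Genes were named by rule: the 15 largest rises and 15 largest falls past the threshold with at least 20 CPM and no overlap, in the profile the 20 highest and 10 lowest ratios with 1 sign in all libraries, and members of fixed lists. Members and lists were chosen with earlier results of these data known. Some genes that meet the rule are not reported here. Gene positions are from GENCODE for GRCm38.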

Additional observations from a re-analysis of the deposited data

Results flagged for a closer look

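Some genes printed above had a change between groups that differed between Paneth cells and the other cells of the same libraries in the fit with both cell classes (edgeR quasi-likelihood test, adjusted p under 0.05). Values are the log2 change in Paneth cells less that in other cells. Between traced and non-traced 8-week cells the antigen presentation genes had -2.88 (H2-Aa), -2.78 (H2-Eb1), -2.51 (Cd74) and -2.28 (H2-Ab1). Guca2a had the largest difference at -4.89. Cholesterol enzymes had -2.15 (Fdps) and -1.84 (Hmgcs1). Cd177 had -3.89, AW112010 -3.17, Anxa2 -2.58, Prss32 -2.21 and Rpl34-ps1 -1.43. Lgals2 had -1.36. Differences above 0 were found for Defa21 (2.56), Cdkn1a (2.28), Bambi (2.16), Defa22 (2.10), Gm21002 (1.82), Defa20 (1.41) and Mptx2 (1.14). Of these, Defa20, Defa21 and Defa22 lay below 0 in traced Paneth cells, as given above, so their differences are not rises there. They also belong to the genes that separated Paneth from other cells, so their differences are a description. Gm21002 was lower in traced cells of both classes, and more so in the other cells. Between 8 weeks and 5 days, Thbs1 had -3.87, AI747448 -1.69, Pla2g2a -1.68 and Slx1b -1.16, and Yipf5 had 2.26. Endoplasmic reticulum genes had 1.90 (P4hb), 1.79 (Edem1), 1.43 (Dnajc3), 1.14 (Hspa5), 1.0 (Calr) and 0.89 (Pdia6). Goblet markers had 1.27 (Spink4), 1.02 (Guca2a) and 0.82 (Muc2). Cd24a had -1.04, Mmp7 -0.88 and Lyz1 -0.81. Mmp7 and Lyz1 too belong to the genes that separated the cell classes, so their values are a description. Pla2g2a rose in both classes, with 2.47 in Paneth and 4.18 in other cells.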

How the results depend on the processing

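The count of genes that separated traced from non-traced Paneth cells moved from 33 to 70 without a filter on low counts, to 11 without cells holding 2% or more of another list's markers, to 10 at a share of 10% and at 20%, to 2 at 2.5% and to 1 with cells thinned to 3000 transcripts; leaving out 1 library gave 0 to 92. DESeq2 called 31, of which 15 were shared. The 558 genes of 8 weeks against 5 days moved to 290 with DESeq2, 257 without cells with 0.1% or more tuft, enteroendocrine or enterocyte markers, 147 without cells with 2% or more of another list and 77 thinned, with 396 to 594 without 1 library. The 138 genes of the traced interaction moved to 87 with DESeq2, 231 without a filter, 218 without the largest cell, 14 without cells with 2% of another list and 30 thinned, with 46 to 421 without 1 library. The 163 genes of the time interaction moved to 58, 101, 17 and 13 under DESeq2, no filter, without cells with 2% of another list and thinned, to 105 at 5000 transcripts per cell and to 42 without cells with 0.1% markers, with 67 to 161 without 1 library (67 without 5-day replicate 2, 75 and 85 without 8-week replicates 1 and 3, 103 without 5-day replicate 3). The share difference of traced and non-traced turned to 0.135 at a share of 20% and 1.44 without cells with 2% of another list, and that of 8 weeks and 5 days to -1.73 in the latter setting; leave-one-out gave -6.19 to -0.66 and 5.56 to 11.1. Without cells with 2% of another list, Scgb2b19 turned to -0.19 and Lgals2 to 0.36 in the traced comparison, Klk1 to -0.74, Sec61b to -0.00, Ssr4 to -0.21, Tmed6 to -0.05 and Tram1 to -0.01 over time, and the interactions to 0.02 (Anxa2), 0.22 (Lgals2), -0.41 (Klk1), -0.02 (Pdia6) and -0.01 (Ssr4). Chgb turned to -0.31 at 2.5%, Krt19 to 0.08 at 20%, 0.01 at 10%, 0.00 without the 0.1% markers and -2.23 to 0.10 without 1 library (0.10 without non-traced replicate 1) and Tmed10 to -0.02 thinned. Fewer cells or genes enter these settings; the causes were not tested. Named genes kept their direction and side of the threshold in 292 of 565 (traced) and 1771 of 2115 (time) values over these settings. A replicate block gave 33 genes (22 shared) and 470; equal replicate numbers did not deviate together (correlations 0.0743 and 0.038, 0.0228 and 0.0138). A batch block could not be fitted over time. Depth limits single cells: a Paneth cell has a median of 17595 transcripts, so genes under 20 CPM are seen in few cells.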

Other observations

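Among the other kept cells 14 held 2.5% to 5% of the 22 genes. The cell nearest below the limit (4.78%, 5-day replicate 5) had 0.45% goblet and 0.599% cell cycle markers, while the next (4.28%, 8-week traced CD24+ replicate 2) had 6.74% goblet markers. A cell of the 3-week traced CD24+ library at 3.92% had 20.4% goblet markers. The 3-week traced CD24+ library held 26 of the 62 goblet-marker cells.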
